A study of Homo sapiens with 12 samples.

Results

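HCT116 was set against SNU398, both under treatment with 5-Aza-CdR. HCT116 is an established line from a human colon carcinoma, and SNU398 is an established line from a human hepatocellular carcinoma. All 4 HCT116 arrays and all 4 SNU398 arrays were taken, 8 of the 12 arrays in the series; the other 4 arrays are of HL60, a promyelocytic leukaemia line. Each line had 2 arrays under 5-Aza-CdR alone and 2 under a combination of it with an agent that is not named in the labels, and the arrays of a group carry the replicate numbers 1 and 2. Every array was therefore of treated cells, with no untreated sample, so a difference between the lines is one between treated lines and not the response to the drug. Each line stands for itself, not for colon or liver tissue.

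5-Aza-CdR (decitabine) is a cytidine analogue that is phosphorylated in the cell, built into DNA and traps DNA methyltransferases, so that newly made DNA loses methylation. Genes that methylation keeps silent, such as germline genes and imprinted alleles, can then be transcribed, and double-stranded RNA from derepressed repeats can switch on interferon-stimulated genes. Epithelial carcinoma cells carry keratins and cell junction proteins, whereas carcinoma cells with a mesenchymal phenotype carry vimentin, N-cadherin, fibrillar collagens and transcription factors of the epithelial-mesenchymal transition (EMT) such as TWIST1.

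The deposited values are log2 levels, 1 per gene symbol and array. Of 20545 symbols, 17290 were listed for HCT116, 19402 for SNU398 and 16147 for both, and 12349 of these were above 0 on all 8 arrays and were tested. The other 3798 were listed at exactly 0 on an HCT116 array, 9 of them on each replicate 1 array and 3795 on each replicate 2 array, and none was at 0 in SNU398. Because the lines are listed for different sets of symbols, the cell line and the array or processing of its samples cannot be told apart. The number of arrays limits the precision, and as nothing states that arrays came from separate cultures, the p-values speak of the spread among these arrays alone, and that spread may be technical.

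The HCT116 replicate 2 arrays stood apart from all others in scale. Over the genes tested, the median level was 9.10 and 9.08 for HCT116 replicate 1, 8.04 and 8.05 for HCT116 replicate 2, and 9.34 to 9.40 across SNU398. The rank correlation (Spearman, across genes) between HCT116 and SNU398 arrays was 0.81 to 0.83 for replicate 1 but 0.55 to 0.69 for replicate 2, against 0.64 to 0.79 between the HCT116 numbers and 0.96 to 0.99 among the SNU398 arrays. The levels of both HCT116 replicate pairs are therefore given for the genes described in full below.

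**Figure D1:**
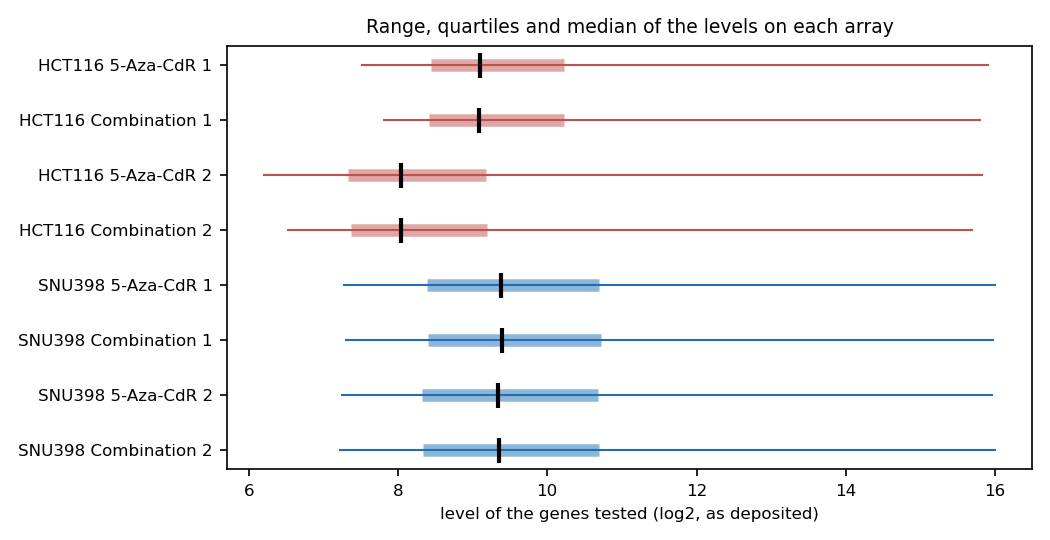
Level of the 12349 genes tested on each of the 8 arrays (log2, horizontal axis), with a thin line from the lowest to the highest value, a thick bar between the quartiles and a black tick at the median. The medians of the HCT116 replicate 2 arrays, 8.04 and 8.05, lie at least a log2 unit below those of the other 6 arrays.

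The line difference was called for 2647 of 12349 genes (21.4%; limma, adjusted p under 0.05), of which 272 were higher in HCT116 (2.2%) and 2375 were higher in SNU398 (19.2%). A further count without adjustment gave 5124 genes at p under 0.05. The median difference over all genes tested, HCT116 minus SNU398, was -0.66 on the log2 scale, and that shift depended on the scale of the arrays: it was 0.15 after each array was centred on its median and 0.0012 after quantile normalization. The split of the calls moved with it, since 10.3% of called genes were higher in HCT116 as deposited, 62.1% after centring and 45.5% after quantile normalization. Centred arrays gave 3079 genes higher in HCT116 (24.9%) and 1881 higher in SNU398 (15.2%). Called in the same direction under all 3 scalings were 248 of the 272 genes and 1214 of the 2375.

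Arrays of the same line and number deviated together, so the fit was repeated with the arrays of a line and replicate number as a random block. That replicate block left 125 genes called, 24 higher in HCT116 (0.194%) and 101 higher in SNU398 (0.818%). All 125 were also called after centring, after centring with the block, and after quantile normalization.

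The sign of the difference was the same for each HCT116 replicate number in every called gene, 272 of 272 and 2375 of 2375. The calls rest on the same 4 HCT116 arrays, and numbers that disagree widen the spread, so this count follows largely from the calling and is no separate support. A difference of at least 2-fold with both numbers was found in 170 of the 272 and in 1440 of the 2375. Over all genes tested, 171 were at least 2-fold higher in HCT116 with both numbers (1.38%) and 1466 at least 2-fold higher in SNU398 (11.9%). The numbers differed widely in how many genes passed alone. With replicate 1, 532 genes were at least 2-fold higher in HCT116 and 1569 in SNU398, and with replicate 2 these counts were 415 and 7007. The median difference was -0.14 with replicate 1 and -1.18 with replicate 2.

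Among all genes tested, 8004 kept the same sign with both numbers, 1142 of them above 0 (9.25%) and 6862 below 0 (55.6%), and 4345 had opposite signs. Of those, 3927 were higher in HCT116 with replicate 1 and lower with replicate 2, and 418 were the reverse. Both numbers were set against the same 4 SNU398 arrays. When each HCT116 number was set against the SNU398 arrays of its own number, so that no array was shared, 175 genes were at least 2-fold higher in HCT116 and 1458 in SNU398 with both. Those differences correlated across the 12349 genes with Pearson's r of 0.55, a description, since genes are not independent replicates.

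**Figure D2:**
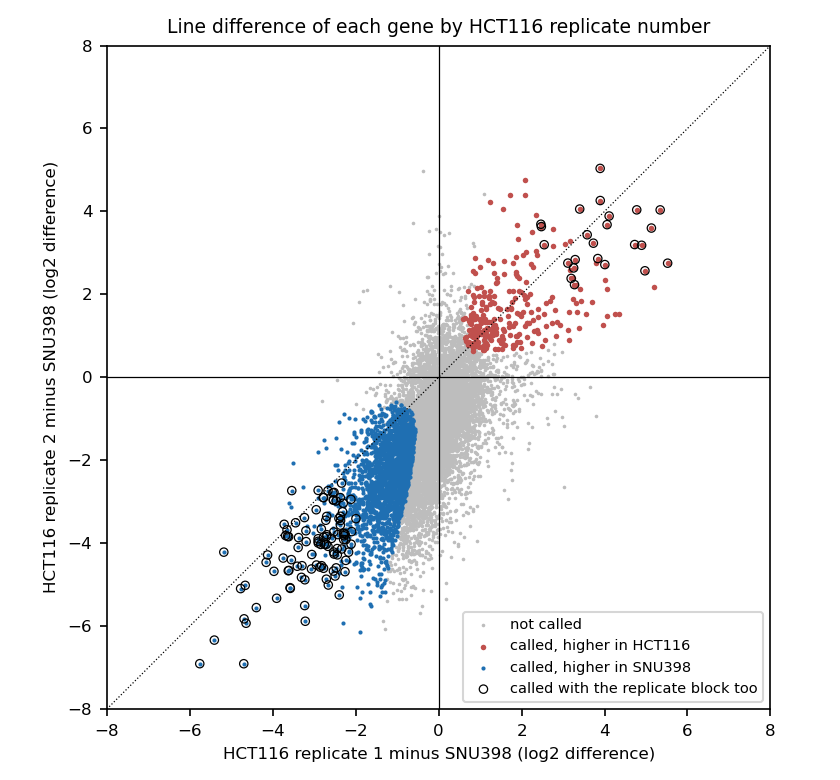
Each point is 1 of the 12349 genes tested, placed by its log2 difference from SNU398 with the HCT116 replicate 1 arrays (horizontal) and with the replicate 2 arrays (vertical); red and blue mark the 272 and 2375 genes called, and black rings the 125 also called with the replicate block. The cloud lies below the dotted line of equality, as the median is -0.14 with replicate 1 and -1.18 with replicate 2, and no called gene lies in a quadrant of opposite signs.

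Keratins of simple epithelia and interferon-stimulated genes were among the genes higher in HCT116. Among called genes at least 2-fold apart with both numbers, the 10 with the largest smaller-of-both differences were KRT8, KRT19, FLJ40504, C19ORF33, IMAA, LAIR1, TMSB4X, DUSP5, LOC643509 and ISG15. Their differences lay between 3.48 and 4.69 on the log2 scale, with adjusted p between 0.000252 and 0.00121, and between 0.00537 and 0.0315 with the replicate block. That the lowest HCT116 array lay above the highest SNU398 array was thus a condition of the choice. It was met by 573 of all genes tested (4.64%).

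KRT8, a keratin of single-layered epithelia, read 13.02 and 12.44 for HCT116 replicate 1, 5-Aza-CdR before the combination as in all such pairs here, and 11.65 and 12.33 for replicate 2. Its SNU398 levels were 7.98 and 7.88 for replicate 1 and 7.94 and 8.01 for replicate 2, so the lines were far apart under each number and treatment (difference 4.41 ± 0.32, SE, n = 4 arrays per line, adjusted p = 0.000361). With the replicate block the SE was 0.85 and the adjusted p 0.0281. Every SE given after ± is from the fit without the block, which takes the 4 arrays of a line as separate. Over the 10 leading genes here the SE was 0.23 to 0.44 without the block and 0.53 to 0.85 with it. KRT19, a type I keratin of ductal and intestinal epithelium, was at 12.85, 13.14, 11.24 and 12.14 in HCT116 (replicate 1, then 2) and at 7.65, 7.64, 7.76 and 7.56 in SNU398. That difference of 4.69 ± 0.41 was 5.34 with replicate 1 and 4.04 with replicate 2.

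TMSB4X, thymosin beta-4, which binds actin monomers, was at 15.42, 15.65, 14.09 and 13.92 in HCT116 and at 10.27, 10.51, 10.40 and 10.45 in SNU398. LAIR1, an inhibitory receptor known from leukocytes, was at 15.75, 15.77, 15.37 and 15.39 against 11.72, 11.65, 11.72 and 11.70. The HCT116 replicate pairs of both genes lay well above all SNU398 arrays. DUSP5, a nuclear phosphatase of ERK kinases, was at 12.72, 12.62, 12.54 and 12.51 against 9.02, 9.12, 8.96 and 9.27, the difference being 3.58 with replicate 1 and 3.44 with replicate 2. In 9 of these 10 genes all 4 HL60 arrays lay below the lowest HCT116 array. The other was TMSB4X, at 15.87 to 15.93 in HL60. As the 10 were chosen for being far higher in HCT116, and the share of all genes with HL60 below was not counted, this marks no trait of HCT116 alone.

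**Figure D3:**
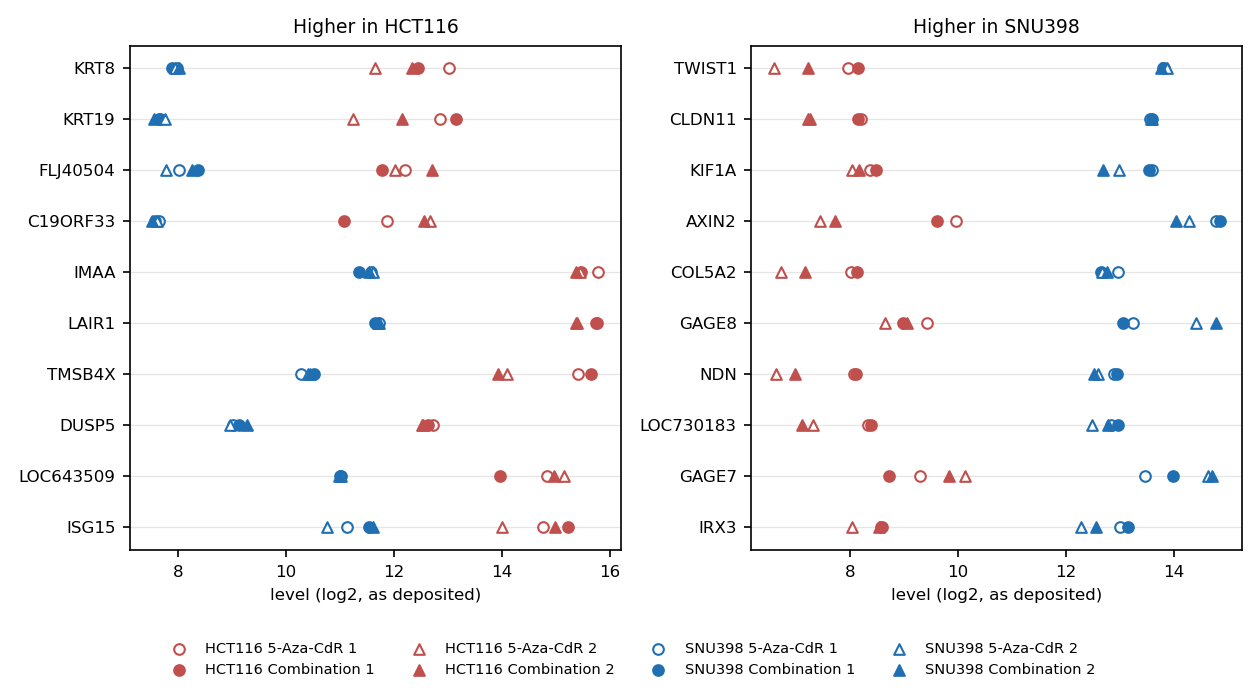
Levels (log2, horizontal axis) of the 10 genes higher in HCT116 and the 10 higher in SNU398 that lead by their smaller difference over both HCT116 replicate numbers; red is HCT116, blue SNU398, circles replicate 1, triangles replicate 2, open symbols 5-Aza-CdR and filled symbols the combination. By the choice of these genes, no red symbol overlaps the blue range of its gene. In TWIST1, CLDN11, AXIN2, COL5A2 and NDN the HCT116 replicate 2 triangles lie below the replicate 1 circles.

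Of the keratin list 12 of 19 members were tested, and 4 were higher in HCT116 (2.2% of all genes) and none in SNU398, and 2 of the 4 were called with the block. The list median was 0.63 against -0.66 for all genes, but it was 1.44 with replicate 1 and -0.05 with replicate 2. KRT81 was at 9.99, 9.59, 9.54 and 9.64 against 7.61, 7.57, 7.61 and 7.55 in SNU398 (adjusted p = 0.00165, or 0.0979 with the block). KRT7, a keratin of glandular epithelium, was at 9.61, 9.13, 8.71 and 8.93 against 7.53, 7.59, 7.58 and 7.61 (0.00929, or 0.218 with the block). KRT18, the partner of KRT8 in its filaments, was listed at 0 on both HCT116 replicate 2 arrays and could not be tested: it was at 8.96 and 9.02 with replicate 1 and between 7.70 and 8.01 in SNU398.

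Of 31 epithelial junction and splicing genes, 4 were higher in HCT116 (2.2% of all genes) and 2 higher in SNU398 (19.2%), and none was called with the block. DSG2, a desmosomal cadherin, was at 9.89, 10.01, 10.74 and 10.98 in HCT116 and between 7.84 and 8.01 in SNU398 (2.49 ± 0.31, adjusted p = 0.00275, or 0.0603 with the block). LAMB3, a laminin chain of epithelial basement membrane, and EVPL, envoplakin of the desmosome, were higher in HCT116 by 1.43 and 1.12, with blocked adjusted p of 0.274 and 0.545. CGN, the tight junction protein cingulin, was higher in SNU398, at 8.93, 9.02, 8.37 and 8.16 in HCT116 and at 10.57, 10.85, 9.87 and 10.03 in SNU398 (-1.71 ± 0.34, adjusted p = 0.0138, or 0.159 with the block). TJP1, the junction scaffold ZO-1, named after its values were seen as the other of these 2, differed by -1.01 with replicate 1 and by -3.33 with replicate 2 (blocked adjusted p = 0.132). CDH1, E-cadherin, was listed at 0 on both HCT116 replicate 2 arrays, at 8.19 and 8.34 with replicate 1 and between 7.82 and 7.99 in SNU398. After centring, 23 of the 31 were higher in HCT116, so the count rests on the scale of the arrays.

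Interferon response genes held the highest list median, 0.74 against -0.66 for all genes, and 15 of the 44 tested were higher in HCT116 (background 2.2%) and 1 higher in SNU398. All 15 stayed called after centring, 12 were at least 2-fold higher with both replicate numbers, and 3 were called with the replicate block. ISG15, a ubiquitin-like protein that is joined to other proteins, was at 14.76, 15.22, 14.01 and 14.98 in HCT116 and at 11.13, 11.54, 10.76 and 11.61 in SNU398. IFITM2, a membrane protein that restricts virus entry, was at 13.55, 14.64, 12.61 and 13.63 against 10.22, 10.61, 9.86 and 10.35 (3.35 ± 0.35, adjusted p = 0.0014, or 0.045 with the block). MX1, an antiviral GTPase, was at 10.68, 12.12, 9.63 and 11.08 against 7.48, 8.80, 7.57 and 8.64. In all 3 the groups did not overlap, and the combination array lay above its 5-Aza-CdR partner in each line and number. That rise was not counted over the list or over all genes. IFITM1, given next, was slightly lower under the combination in SNU398 with both numbers (-0.07 and -0.01).

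IFITM1, of the same membrane family, was at 10.38, 11.31, 9.93 and 10.61 in HCT116 and between 7.64 and 7.75 in SNU398 (2.88 ± 0.30, adjusted p = 0.0014, or 0.103 with the block). The other 11 called higher in HCT116 were IFI6, IFI27, IFI44, IFITM3, ISG20, IRF7, HERC5, BST2, PARP12, PARP14 and LGALS3BP; with IFITM1 they were called without the block and not with it. IFIH1, the cytosolic sensor of double-stranded RNA also called MDA5, was the exception, named after its values were seen. It was at 9.24, 10.36, 7.997 and 9.06 in HCT116 and at 10.89, 11.21, 11.50 and 11.89 in SNU398 (-2.21 ± 0.43, adjusted p = 0.0131, or 0.161 with the block). Of 7 further members listed at 0 on an HCT116 array, RSAD2 stood at 7.93 and 8.11 with replicate 1 and between 7.76 and 7.96 in SNU398.

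The promoters of ISG15, IFITM1 and MX1 are shown because these genes were higher in HCT116 under both numbers and interferon acts through a known short element. The windows run from 250 bases before to 50 after a RefSeq transcript start, 300 bases in all, on build GRCh38.p14, and read 5′ to 3′ along the gene's strand. Capitals mark GAAA followed, after any 2 bases, by GAAA again, or on the other strand TTTC, any 2 bases and TTTC; this is the core of the interferon-stimulated response element, and overlapping matches are joined.
ISG15, chr1:1013247-1013546, + strand: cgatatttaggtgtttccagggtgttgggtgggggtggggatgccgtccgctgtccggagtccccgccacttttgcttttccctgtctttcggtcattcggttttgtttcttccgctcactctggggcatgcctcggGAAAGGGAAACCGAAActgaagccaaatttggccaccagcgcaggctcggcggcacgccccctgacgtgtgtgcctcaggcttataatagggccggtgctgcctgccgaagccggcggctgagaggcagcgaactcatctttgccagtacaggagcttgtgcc
IFITM1, chr11:313790-314089, + strand: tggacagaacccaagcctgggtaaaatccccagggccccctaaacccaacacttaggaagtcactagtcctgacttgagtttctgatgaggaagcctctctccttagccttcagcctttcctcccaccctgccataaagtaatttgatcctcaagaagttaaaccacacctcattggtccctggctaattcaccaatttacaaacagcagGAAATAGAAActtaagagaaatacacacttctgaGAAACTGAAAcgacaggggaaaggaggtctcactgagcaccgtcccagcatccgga
MX1, chr21:41420308-41420607, + strand: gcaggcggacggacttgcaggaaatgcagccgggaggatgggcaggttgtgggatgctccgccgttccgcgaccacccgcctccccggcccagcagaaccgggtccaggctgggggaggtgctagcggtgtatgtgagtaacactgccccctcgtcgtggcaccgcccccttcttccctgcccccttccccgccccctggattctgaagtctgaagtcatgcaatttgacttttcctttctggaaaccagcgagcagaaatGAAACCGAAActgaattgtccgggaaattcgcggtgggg
A window with this motif was found for 299 of the 8090 tested genes that have a window (3.7%), for 23 of 34 interferon list members (67.6%), and for 13 of the 13 called higher in HCT116 that have a window. IFITM2 and IRF7 have no entry. The motif was chosen after the values were seen and is a description of these letters, and the lists hold known interferon targets, so this count is no test.

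**Figure D4:**
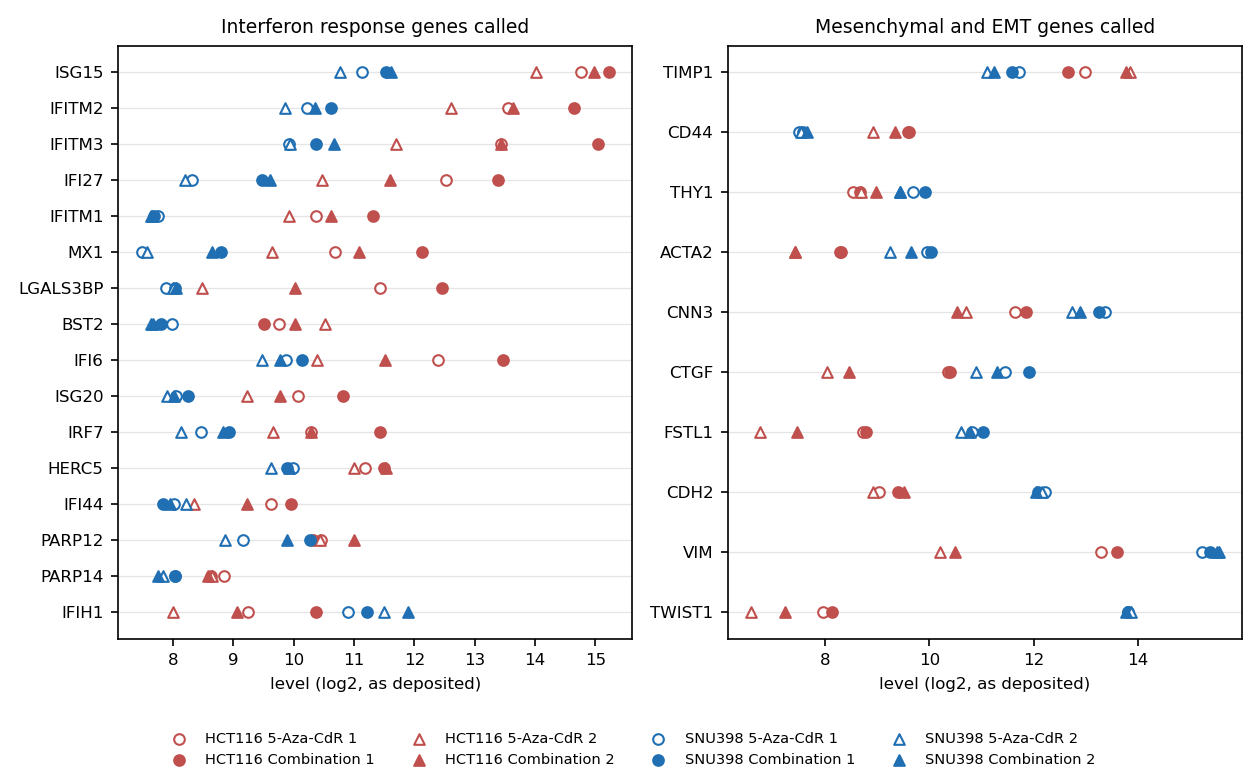
Levels (log2, horizontal axis) of the 16 called interferon response genes and the 10 called mesenchymal and EMT genes on the 8 arrays, with the symbols of the plot of the leading genes. In 15 interferon genes the red HCT116 symbols lie to the right of the blue SNU398 ones, in IFIH1 to the left, and VIM and TWIST1 lie to the left in HCT116.

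S100 proteins, small calcium-binding proteins, were higher in HCT116 in 5 members of the S100 and annexin list of 18 tested (2.2% of all genes), 2 of them called with the block. S100A10, the annexin A2 partner, was at 14.97, 15.13, 11.93 and 12.63 in HCT116 and at 9.41, 9.74, 9.38 and 9.58 in SNU398 (4.14 ± 0.72, blocked adjusted p = 0.0295). S100A6, calcyclin, was at 13.96, 14.16, 11.59 and 11.72 against 9.07, 9.88, 8.39 and 9.02 (3.77 ± 0.67, blocked adjusted p = 0.0484). Both were lower on the replicate 2 than on the replicate 1 arrays of HCT116 and still above SNU398. S100A3, S100A11 and S100A13 were higher by 2.46, 1.75 and 1.82, with blocked adjusted p of 0.0997, 0.141 and 0.147. ANXA7, an annexin, was higher in SNU398 by -2.36 (blocked adjusted p = 0.163), and like S100A3 it is named after its values were seen. The list median was 0.95 with replicate 1 and -0.77 with replicate 2, so the list as a whole changed sign between the numbers.

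The EMT factor TWIST1, the Wnt feedback gene AXIN2, a fibrillar collagen and the imprinted gene NDN were among the genes higher in SNU398. The 10 leading genes higher in SNU398 were TWIST1, CLDN11, KIF1A, AXIN2, COL5A2, GAGE8, NDN, LOC730183, GAGE7 and IRX3. Their differences lay between -6.33 and -4.31, with adjusted p between 0.000252 and 0.00145, and between 0.000711 and 0.0191 with the replicate block. All 4 HCT116 arrays lay below all 4 SNU398 arrays in each by the condition of the choice, which 4764 of all genes tested met (38.6%). All 4 HL60 arrays lay below the lowest SNU398 array in all 10. These genes were chosen for being far higher in SNU398, and the share of all genes with HL60 below was not counted. The HL60 count therefore marks no trait of SNU398 alone.

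TWIST1, a transcription factor of EMT and of mesoderm, gave the largest difference of the 20 leading genes. It was at 7.97, 8.14, 6.59 and 7.23 in HCT116 and at 13.82, 13.80, 13.87 and 13.77 in SNU398 (-6.33 ± 0.37, adjusted p = 0.000252, or 0.00275 with the block). The difference was -5.76 with replicate 1 and -6.91 with replicate 2. KIF1A, a kinesin that carries synaptic vesicle precursors along axons, was at 8.38, 8.47, 8.04 and 8.17 against 13.59, 13.53, 12.99 and 12.69. IRX3, an Iroquois homeobox factor, was at 8.58, 8.60, 8.04 and 8.54 against 13.01, 13.14, 12.28 and 12.55.

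Of the mesenchymal and EMT list 28 of 53 members were tested, and 8 were higher in SNU398 and 2 higher in HCT116; among all genes the shares were 19.2% and 2.2%. After centring the counts were 7 and 11, so the direction of the list turns with the scale, and with the block they were 1 and 0. CDH2, N-cadherin, was at 9.03, 9.41, 8.91 and 9.51 in HCT116 and at 12.21, 12.09, 12.17 and 12.05 in SNU398 (-2.91 ± 0.24, adjusted p = 0.000607, or 0.0673 with the block). The difference of CDH2 was -2.91 with replicate 1 and -2.92 with replicate 2, although the arrays of replicate 2 are lower overall. FSTL1, a secreted follistatin-like protein, was at 8.73, 8.78, 6.76 and 7.47 against 10.81, 11.03, 10.62 and 10.78 (blocked adjusted p = 0.0712). VIM, vimentin, the intermediate filament of mesenchymal cells, was named after its values were seen. It reached 13.30 and 13.60 for HCT116 replicate 1, 10.21 and 10.48 for replicate 2, and 15.22 to 15.55 across SNU398 (-3.52 ± 0.80, adjusted p = 0.0209, or 0.0615 with the block).

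The members higher in HCT116 were CD44, a hyaluronan receptor, and TIMP1, an inhibitor of matrix metalloproteinases (blocked adjusted p = 0.131), the latter named after its values were seen. CD44 was at 9.61, 9.60, 8.92 and 9.35 in HCT116 and between 7.49 and 7.65 in SNU398 (1.80 ± 0.25, adjusted p = 0.00418, or 0.132 with the block). With 12 more members listed at 0 on both HCT116 replicate 2 arrays, several of the best known were not tested. LUM, the keratan sulphate proteoglycan lumican, was at 7.91 and 7.94 on the HCT116 replicate 1 arrays and between 10.08 and 10.32 in SNU398. PRRX1, a homeobox factor of mesenchyme, was at 7.91 and 7.98 there and between 9.96 and 10.34 in SNU398. ZEB2, an EMT repressor of E-cadherin, was at 7.96 and 7.98 and between 9.37 and 10.27. SPARC, by contrast, was at 8.58 and 8.32 with replicate 1 and between 7.57 and 7.76 in SNU398.

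Collagen genes were split: of 22 tested 3 were higher in SNU398 and 1 in HCT116 as deposited (19.2% and 2.2% of all genes), 3 and 12 after centring, and 1 and 0 with the block. COL5A2, a chain of fibrillar collagen V, was at 8.02, 8.13, 6.72 and 7.16 in HCT116 and at 12.96, 12.65, 12.68 and 12.76 in SNU398 (-5.26 ± 0.37, blocked adjusted p = 0.00537). SERPINH1, the collagen chaperone HSP47, was at 10.42, 10.23, 9.35 and 9.17 against 11.95, 12.21, 12.49 and 12.44 (-2.48 ± 0.36, adjusted p = 0.00465, or 0.0723 with the block). P4HA1, a prolyl hydroxylase of collagen, was lower in HCT116 by -1.44 with replicate 1 and -3.10 with replicate 2 (blocked adjusted p = 0.202). COL6A1, of the beaded collagen VI, was the member called higher in HCT116 as deposited, at 10.55, 10.57, 10.12 and 10.02 against 8.72, 9.09, 8.85 and 8.76 (blocked adjusted p = 0.199). COL3A1, another fibrillar collagen, was listed at 0 on both HCT116 replicate 2 arrays, at 7.99 and 7.84 with replicate 1 and between 13.30 and 13.45 in SNU398.

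Among 15 integrins and laminins tested, 3 were higher in SNU398 and 2 higher in HCT116 (19.2% and 2.2% of all genes), or 3 and 9 after centring and 1 and 0 with the block. ITGAV, the alpha chain of vitronectin receptors, was at 9.22, 9.03, 6.68 and 7.03 in HCT116 and at 11.92, 11.84, 12.74 and 12.94 in SNU398 (-4.37 ± 0.65, blocked adjusted p = 0.019). ITGB1, the beta chain shared by many integrins, differed by -2.24 and LAMC1, a laminin gamma chain, by -1.96, with blocked adjusted p of 0.11 and 0.144. ITGA3, a laminin receptor chain, was higher in HCT116, at 9.75, 9.59, 9.66 and 9.50 against 7.96, 8.11, 7.79 and 7.86 (blocked adjusted p = 0.137).

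AXIN2, a Wnt target that feeds back to degrade beta-catenin, had levels of 9.96 and 9.61 for HCT116 replicate 1, of 7.44 and 7.72 for replicate 2, and of 14.78, 14.85, 14.28 and 14.04 in SNU398 (-5.80 ± 0.61, adjusted p = 0.00145, or 0.00537 with the block). Of 12 Wnt targets and antagonists tested, 2 were higher in SNU398 and 1 in HCT116 (19.2% and 2.2% of all genes). Their median of -0.57 was close to that of all genes. TNFRSF19, a TNF receptor family member, was the other one higher in SNU398, by -2.06 with replicate 1 and -2.84 with replicate 2 (blocked adjusted p = 0.077). A further 9 members were listed at 0 on both HCT116 replicate 2 arrays and were not tested. LEF1 was at 7.88 and 7.90 with replicate 1 and between 12.46 and 12.74 in SNU398. ZNRF3, APCDD1, SFRP1, SFRP4, DKK2 and WIF1 were also higher in SNU398 than with replicate 1, and SP5 and DKK4 were lower.

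In the TGF-beta and BMP list 7 of 21 members were higher in SNU398 and 1 higher in HCT116 (19.2% and 2.2% of all genes), or 6 and 5 after centring and 1 and 0 with the block. ID2, an inhibitor of differentiation that BMP signals induce, was at 9.70, 9.74, 6.99 and 7.12 in HCT116 and at 12.71, 12.86, 13.08 and 13.09 in SNU398 (-4.55 ± 0.69, blocked adjusted p = 0.0127). The ligands BMP4 and BMP7 went opposite ways. BMP4 was at 10.75, 10.95, 11.003 and 11.05 in HCT116 against 8.85, 8.90, 8.58 and 8.62 (2.21 ± 0.23, adjusted p = 0.00142, or 0.0697 with the block). BMP7 was at 8.11, 8.07, 7.68 and 7.17 against 10.69, 10.78, 10.39 and 10.24 (-2.77 ± 0.30, adjusted p = 0.00155, or 0.0568 with the block). TGFBR3, the co-receptor betaglycan, was lower in HCT116 by -2.33 (blocked adjusted p = 0.102).

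HOX genes, which set position along the body axis, were higher in SNU398 in 6 of 17 tested and higher in HCT116 in 1 (19.2% and 2.2% of all genes), or 5 and 5 after centring, and none was called with the block. The 4 with the smallest p were HOXC8, HOXD11, HOXC4 and HOXC13. HOXC8 was at 8.33, 8.15, 7.38 and 7.71 in HCT116 and at 10.59, 10.41, 10.31 and 10.18 in SNU398 (-2.48 ± 0.29, adjusted p = 0.0022, or 0.0723 with the block). HOXD11 and HOXC13 had blocked adjusted p of 0.0712 and 0.0699. HOXC4 differed by -2.58 with replicate 1 and -2.60 with replicate 2 (blocked adjusted p = 0.0903). HOXA9, named after its values were seen as the member higher in HCT116, was at 9.41, 9.69, 10.36 and 10.19 against 8.64, 8.88, 8.58 and 8.79 (blocked adjusted p = 0.28).

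Imprinted genes, which are expressed mainly from 1 parental allele, were called in both directions. Of 12 tested, 3 were higher in HCT116 and 5 higher in SNU398 (2.2% and 19.2% of all genes), or 6 and 5 after centring and 1 and 2 with the block. H19, a maternally expressed non-coding RNA, was at 13.53, 12.88, 11.70 and 11.30 in HCT116 and at 8.31, 8.26, 8.37 and 8.32 in SNU398 (4.04 ± 0.48, adjusted p = 0.00225, or 0.019 with the block). PHLDA2, a maternally expressed growth restrainer of placenta, was at 9.33, 8.99, 9.68 and 9.58 against 7.98, 7.97, 7.66 and 7.76 (blocked adjusted p = 0.169). The paternally expressed neighbours NDN and SNRPN of the Prader-Willi region were both far lower in HCT116. NDN, necdin, was at 8.08, 8.10, 6.63 and 6.98 against 12.89, 12.95, 12.59 and 12.51 (-5.29 ± 0.40, blocked adjusted p = 0.00348). SNRPN was at 7.98, 7.92, 6.72 and 7.09 against 11.43, 11.39, 11.67 and 11.77 (-4.13 ± 0.35, blocked adjusted p = 0.00833).

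The promoters of NDN and CLDN11 are shown because both genes were near the low end of the range in HCT116 and high in SNU398, and CG pairs are the sites whose methylation is lost under 5-Aza-CdR. CLDN11, a claudin of myelin and Sertoli cell junctions, was at 8.20, 8.14, 7.23 and 7.26 in HCT116 and at 13.56, 13.59, 13.59 and 13.58 in SNU398. The windows are RefSeq's on GRCh38.p14, defined as above, and capitals mark each CG, which reads the same on both strands.
NDN, chr15:23687256-23687555, - strand: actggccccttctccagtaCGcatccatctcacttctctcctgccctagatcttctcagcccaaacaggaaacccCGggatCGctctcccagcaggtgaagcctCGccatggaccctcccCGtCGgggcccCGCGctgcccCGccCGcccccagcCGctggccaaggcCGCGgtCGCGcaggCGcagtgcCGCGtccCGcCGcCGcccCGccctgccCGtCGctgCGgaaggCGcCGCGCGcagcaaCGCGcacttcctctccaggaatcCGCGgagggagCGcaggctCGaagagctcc
CLDN11, chr3:170418618-170418917, + strand: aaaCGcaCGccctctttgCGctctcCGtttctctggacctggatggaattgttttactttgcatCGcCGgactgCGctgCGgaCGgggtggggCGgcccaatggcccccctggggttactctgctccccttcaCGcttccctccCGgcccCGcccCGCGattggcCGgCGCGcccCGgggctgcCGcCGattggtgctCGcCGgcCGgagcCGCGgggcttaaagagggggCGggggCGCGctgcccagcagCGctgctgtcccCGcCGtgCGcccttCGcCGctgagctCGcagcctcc
These windows hold 35 and 36 CG pairs; a second CLDN11 start has 3. Over 11746 windows of the tested genes the median was 25, the quartiles 15 and 34, and 99.34% held at least 1. The count describes the reference sequence, and methylation was not measured. Of the 20 leading genes 9 have a window. Of the others higher in SNU398, the starts of KIF1A hold 51, 20 and 10 CG pairs, those of LOC730183 35 and 26, and GAGE7 13. Of those higher in HCT116, TMSB4X holds 27, ISG15 20, the starts of LAIR1 10 and 8, and KRT8 2.

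Cancer-testis and germline genes, which are normally silent outside the germ line, were higher in SNU398 in 17 of 47 tested and higher in HCT116 in 5 (19.2% and 2.2% of all genes), or 2 and 0 with the block. GAGE8, a leading gene that is not on this list, was at 9.43, 8.99, 8.65 and 9.06 in HCT116 and at 13.24, 13.06, 14.41 and 14.78 in SNU398. GAGE7 was at 9.30, 8.72, 10.12 and 9.83 against 13.46, 13.98, 14.63 and 14.71, and GAGE2A at 12.25, 11.51, 12.07 and 12.51 against 15.19, 15.53, 15.48 and 15.50 (-3.34 ± 0.29, adjusted p = 0.00075, or 0.0782 with the block). GAGE copies are nearly identical, so a probe may read several of them and these are not separate results. PAGE2 and PAGE5, of a related X-linked family, were lower in HCT116 by -2.46 and -2.19, with blocked adjusted p of 0.122 and 0.102. DAZL, an RNA-binding protein of germ cells, was named after its values were seen as the other member called with the block. It was at 8.34, 8.76, 6.62 and 7.10 in HCT116 and at 10.66, 11.19, 10.72 and 11.39 in SNU398 (-3.29 ± 0.47, blocked adjusted p = 0.0261). SPANXB1, a sperm nucleus protein with near-identical copies, is likewise named after its values were seen and went the other way, at 9.33, 9.75, 12.29 and 11.77 against 8.01, 7.95, 8.07 and 7.88 (blocked adjusted p = 0.12). After centring, 10 members were called higher in SNU398 and 13 higher in HCT116.

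Of 13 genes of the DNA methylation machinery 3 were higher in SNU398 and 1 in HCT116 (19.2% and 2.2% of all genes), and none was called with the block. TET1, a 5-methylcytosine dioxygenase, was at 8.02, 7.93, 7.39 and 7.20 in HCT116 and at 9.50, 9.36, 9.59 and 9.25 in SNU398 (-1.79 ± 0.27, adjusted p = 0.00548, or 0.12 with the block). DNMT3B, a de novo methyltransferase, was at 8.67, 8.65, 7.72 and 7.77 against 9.67, 9.73, 9.94 and 9.86 (adjusted p = 0.0136, or 0.15 with the block). TDG, a glycosylase that excises oxidised methylcytosine, differed by -1.11 (blocked adjusted p = 0.266), and by -0.31 with an adjusted p of 0.504 after centring. GADD45A, a stress protein linked to DNA repair, was at 10.27, 10.33, 9.40 and 9.52 against 8.69, 8.70, 8.68 and 8.70 (blocked adjusted p = 0.242). DNMT1, the maintenance enzyme that the drug traps, is given after its values were seen: it was at 13.60, 13.18, 10.81 and 11.21 in HCT116 and between 12.91 and 13.22 in SNU398, and was not called (adjusted p = 0.329).

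Of 15 genes of decitabine uptake and metabolism, 3 were higher in SNU398 and none in HCT116, a share near the 19.2% of all genes, and none was called with the block. DCTD, the deaminase of deoxycytidylate, was at 9.87, 10.001, 8.09 and 8.20 in HCT116 and at 10.95, 11.09, 10.89 and 10.94 in SNU398 (-1.93 ± 0.49, adjusted p = 0.0301, or 0.133 with the block). SLC29A2, an equilibrative nucleoside transporter, differed by -1.56 and NT5C2, a cytosolic nucleotidase, by -1.17, with blocked adjusted p of 0.339 and 0.276. After centring SLC29A2 and NT5C2 were not called, with adjusted p of 0.0524 and 0.261.

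Of 7 mismatch repair genes 2 were higher in SNU398 (19.2% of all genes), neither with the block. MSH6, which recognises mismatches in a dimer, was at 10.63, 10.57, 10.78 and 9.99 against 12.40, 12.39, 12.69 and 12.43 (-1.98 ± 0.25, adjusted p = 0.00273, or 0.15 with the block). MSH6 stayed called after centring.

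Targets of p53 were called in both directions, 4 of 23 higher in HCT116 and 3 higher in SNU398 (2.2% and 19.2% of all genes), or 8 and 3 after centring, and none with the block. CDKN1A, the cyclin-dependent kinase inhibitor p21, was at 11.55, 10.79, 11.56 and 11.88 in HCT116 and at 9.54, 9.61, 9.003 and 8.95 in SNU398 (2.17 ± 0.33, adjusted p = 0.00521, or 0.166 with the block). SFN, 14-3-3 sigma, was at 10.79, 10.57, 11.91 and 11.50 against 8.51, 8.75, 8.76 and 9.26 (blocked adjusted p = 0.133). TNFRSF10B, the death receptor DR5, was higher in HCT116 by 1.73, whereas CCNG1, cyclin G1, was lower by -2.14, with blocked adjusted p of 0.178 and 0.118.

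The genes of respiration and translation had the lowest list medians. Of 58 oxidative phosphorylation subunits 20 were higher in SNU398 (background 19.2%) and none higher in HCT116, with a median of -1.77 against -0.66 for all genes; after centring 19 were higher in SNU398, none in HCT116, and the median was -0.97. With the replicate block none of the 58 was called. The median was -0.63 with replicate 1 and -2.73 with replicate 2, and 55 of the 58 were lower in HCT116 with both numbers (background 55.6%). NDUFA10, a complex I subunit, was at 9.14, 9.09, 7.80 and 7.84 in HCT116 and at 11.21, 11.30, 10.96 and 10.91 in SNU398 (-2.63 ± 0.39, adjusted p = 0.00521, or 0.0512 with the block). SDHC, a membrane anchor of complex II, was at 9.35, 9.30, 8.39 and 8.39 against 11.15, 11.04, 10.94 and 10.93 (blocked adjusted p = 0.0792).

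Cytosolic ribosomal protein genes had a median of -1.46, -0.42 with replicate 1 and -2.60 with replicate 2, yet only 11 of 78 were called, all higher in SNU398, which is a share below the background of 19.2%; after centring 10 were higher in SNU398 and 3 in HCT116, and with the block none was called. RPL23 was called with a nearly equal difference for both numbers, -1.76 and -1.81, at 11.59, 11.89, 11.82 and 11.55 against 13.50, 13.32, 13.61 and 13.56 (adjusted p = 0.00304, or 0.147 with the block). Of 30 proteasome subunits 3 were higher in SNU398, and of 42 mitotic and proliferation genes 6, with none in HCT116 in either list, both shares below the 19.2% of all genes. None of these was called with the block, and centring gave 3 and 6 higher in SNU398 and 1 and 3 higher in HCT116. Among the mitotic genes DLGAP5, a spindle protein, differed by -1.31 with replicate 1 and by -3.31 with replicate 2 (blocked adjusted p = 0.143).

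Of 17 heat shock proteins 4 were higher in SNU398, a share near the 19.2% of all genes, and none in HCT116; the counts were 3 and 3 after centring and 2 and 0 with the block. HSPA1A, an inducible HSP70, was at 8.78, 9.02, 8.30 and 8.47 in HCT116 and at 11.26, 11.28, 11.38 and 11.55 in SNU398 (-2.73 ± 0.26, blocked adjusted p = 0.0315). HSPH1, the HSP110 exchange factor, was at 9.93, 10.05, 8.43 and 8.48 against 12.48, 12.25, 12.23 and 12.13 (-3.05 ± 0.44, blocked adjusted p = 0.0382). In the NRF2 list of 30, 4 were higher in SNU398 and 2 in HCT116 (19.2% and 2.2% of all genes), after centring 2 and 12, and none with the block. HMOX1, haem oxygenase, was at 9.24, 8.91, 7.41 and 7.64 against 11.58, 12.21, 11.48 and 11.999 (-3.52 ± 0.46, adjusted p = 0.00304, or 0.0615 with the block), and ABCC3, an efflux transporter, was higher in HCT116 by 2.21 (blocked adjusted p = 0.125).

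Hypoxia and glycolysis genes numbered 31, with 5 higher in SNU398 and 3 in HCT116 (19.2% and 2.2% of all genes), or 6 and 6 after centring and 1 and 0 with the block. The glucose transporter SLC2A3 and the lactate exporter SLC16A3 lay on opposite sides. SLC2A3 was at 9.47, 9.17, 9.70 and 9.30 in HCT116 and at 12.58, 12.54, 11.88 and 11.91 in SNU398 (-2.82 ± 0.28, blocked adjusted p = 0.0427). SLC16A3 was at 12.79, 12.53, 13.24 and 12.29 against 9.33, 9.78, 9.25 and 9.59 (3.22 ± 0.29, adjusted p = 0.000843, or 0.114 with the block). NDRG1, a hypoxia-induced differentiation gene, was higher in HCT116 by 2.66 and ADM, adrenomedullin, higher in SNU398 by -1.91, with blocked adjusted p of 0.0782 and 0.162. SQLE, squalene epoxidase, led the 4 of 23 cholesterol synthesis genes higher in SNU398, with -2.51 for replicate 1 and -3.06 for replicate 2 (blocked adjusted p = 0.0697). That share is near the 19.2% of all genes, and none of the 4 was called with the block.

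Of 6 oncofetal genes LIN28B and SALL4, both known from stem cells and embryonic liver, were higher in SNU398 (19.2% of all genes). Neither was called with the block. LIN28B was at 9.43, 9.09, 8.94 and 9.31 in HCT116 and at 11.70, 11.62, 11.20 and 11.59 in SNU398 (-2.34 ± 0.25, adjusted p = 0.00155, or 0.111 with the block). SALL4 was at 7.94, 8.11, 6.85 and 7.82 against 10.77, 10.22, 11.20 and 10.81 (blocked adjusted p = 0.143). Of 13 metallothionein and zinc transport genes 1 was called, SLC39A10, and of 16 genes of MHC class I presentation 1, CALR, both higher in SNU398 with blocked adjusted p of 0.279 and 0.363. Both shares are below the 19.2% of all genes. None of 8 MHC class II genes or of 6 ERBB receptors and ligands was called by limma.

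**Figure D5:**
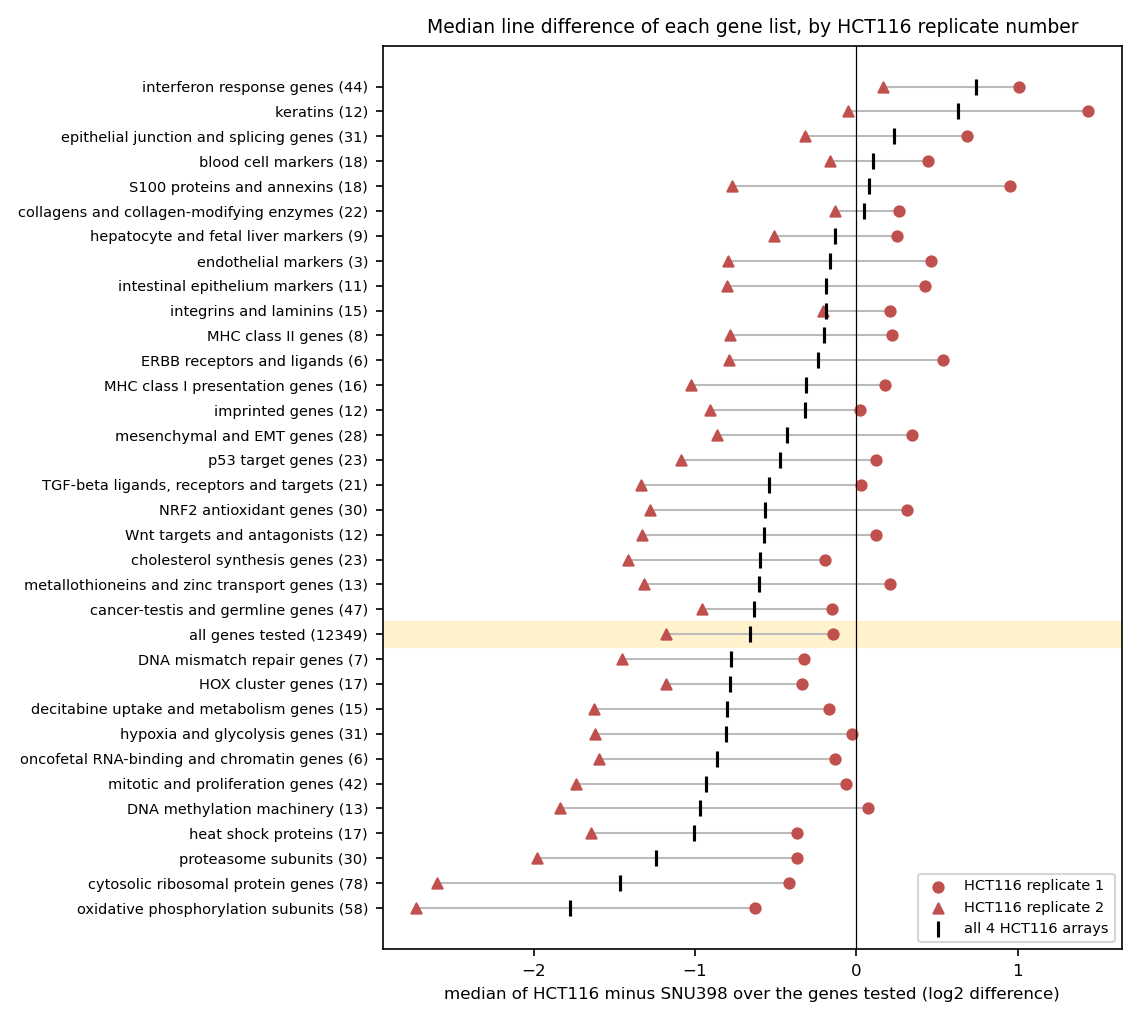
Median log2 difference, HCT116 minus SNU398, over the tested members of each gene list (their number in brackets): circles with HCT116 replicate 1, triangles with replicate 2, black ticks with all 4 HCT116 arrays, and the shaded line for all 12349 genes. In every list the replicate 2 median is below the replicate 1 median, and only interferon response genes keep both medians above 0, at 1.01 and 0.17.

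The tissues of origin of the lines were weakly marked. Of 36 intestinal epithelium markers 11 were tested: TFF3, a trefoil peptide of goblet cells, was higher in HCT116, at 8.80, 8.57, 8.30 and 8.41 against 7.57 to 7.67 in SNU398 (blocked adjusted p = 0.369). Among the genes tested on each array, TFF3 lay at percentiles 1.6 to 2.7 in SNU398 and 31.6 to 59.6 in HCT116. Whether levels this low stand for expression was not tested. CDX2, a transcription factor used to mark colon, differed by -0.81 as deposited (blocked adjusted p = 0.407) and not after centring (adjusted p of 0.991). Of 48 hepatocyte and fetal liver markers 9 were tested and 2 were higher in SNU398, a share near the 19.2% of all genes. Neither was called with the block, and after centring 2 members were higher in SNU398 and 5 in HCT116. CEBPA, a liver-enriched transcription factor, was at 9.37, 9.24, 7.67 and 8.03 against 10.73, 10.90, 11.27 and 11.03 (blocked adjusted p = 0.102), and APOE, an apolipoprotein, differed by -1.72 (blocked adjusted p = 0.317). ALB, albumin, was near the low end in both lines, with a difference of 0.06 ± 0.24. A further 6 members were listed at 0 on both HCT116 replicate 2 arrays, among them GPC3, a glypican of fetal liver, and FOXA1, a pioneer factor of endoderm. GPC3 was at 7.92 and 7.89 with replicate 1 and between 9.38 and 9.52 in SNU398, and FOXA1 at 8.24 and 8.36 and between 10.22 and 10.47. TDO2 was also higher in SNU398 than with replicate 1, whereas FGA and DLK1 were lower and CYP2E1 overlapped.

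Markers of other cells were also called. Of 18 blood cell markers 4 were higher in HCT116 and 1 in SNU398 (2.2% and 19.2% of all genes), 1 and 0 with the block, and the summed level of the 18 was 12.66 to 13.15 (log2) in HCT116 and 12.43 to 12.50 in SNU398. RAC2, a GTPase of blood cells, was at 10.80, 10.88, 9.98 and 10.08 in HCT116 and at 7.70, 7.73, 7.47 and 7.68 in SNU398 (2.79 ± 0.30, blocked adjusted p = 0.0306). HCLS1, a cortactin-like protein, was at 10.27, 10.18, 9.95 and 9.80 against 8.20, 8.32, 7.99 and 7.91 (blocked adjusted p = 0.1). CD3D, of the T cell receptor complex, was at 8.85, 8.59, 8.26 and 8.58 against 7.35 to 7.54 (blocked adjusted p = 0.32). Among 3 endothelial markers tested VWF was higher in HCT116 by 1.13 (blocked adjusted p = 0.348). Among the genes tested on each array, CD3D lay at percentiles 0.09 to 0.84 in SNU398 and 32.5 to 63.4 in HCT116. VWF lay at 0.02 to 1.69 and at 19.3 to 73.0. Whether levels this low stand for expression was not tested. Both are carcinoma lines, and a call of such a gene does not show that blood or endothelial cells were present. The part of other cells in any result was not tested, and in bulk RNA fewer cells of a type and less RNA per cell cannot be told apart.

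All 2647 called genes had the same sign under 5-Aza-CdR and under the combination, which follows largely from calling them over both. With 2 arrays a line, 80 genes were called within 5-Aza-CdR (20 higher in HCT116 and 60 in SNU398) and 58 within the combination (15 and 43) when the spread was shared over the 8 arrays. Fitted alone, the 5-Aza-CdR arrays gave 0 calls by limma, with 1841 genes at p under 0.05 unadjusted, and the combination arrays gave 284. The response to the combination, compared between the lines as an interaction, was called for no gene by limma, with 0 at an unadjusted p under 0.05. That fit counts the gap between the replicate numbers as spread, so it could hardly call a gene and its 0 does not show that the lines responded alike. With differences taken within each line and number, the replicate block, none was called either. There 1303 genes were at p under 0.05 and the smallest adjusted p was 0.422. The 5 genes with the smallest interaction p were SLC16A3, FAM46A, NES, REC8 and HLA-DMA. REC8, a meiotic cohesin, was at 9.87 and 9.34 under 5-Aza-CdR in SNU398 and at 11.25 and 10.80 under the combination, and in HCT116 at 9.19 and 8.51 and at 9.42 and 8.45.

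Where the replicate numbers disagreed, the disagreement was at least 2-fold on each side in 57 genes that were higher in HCT116 with replicate 1 and in 6 that were higher with replicate 2. FOS, an immediate early gene of the AP-1 factor, had levels of 12.95 and 13.002 for HCT116 replicate 1 and of 7.02 and 7.58 for replicate 2, with SNU398 between at 9.68, 9.78, 9.97 and 10.38. FABP5, a fatty acid binding protein, was at 11.38 and 11.54 against 7.42 and 7.84, with SNU398 between 9.56 and 9.78. GCSH, of the glycine cleavage system, TSC22D1 and LOC387882 followed the same order. ZMAT3, a p53-induced RNA-binding protein, did the reverse: it was at 11.50 and 11.21 with replicate 1, at 14.88 and 14.61 with replicate 2 and between 12.08 and 12.96 in SNU398. VCX, VCX-C, DUXAP3 and MIR1974 also did, and VCX and VCX-C are copies of a family whose probes may share targets. For these genes the line difference had no sign that held for both replicate numbers, and limma called none of them.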

How the data were processed

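Gene expression was measured on microarrays, 1 per sample. The authors deposited 1 log2 value per gene symbol and array, read as log2 from its range, and limma is named in the submitters' processing notes; its version, the background correction, the normalization and the summary of probes per symbol were not given in the sources used here. A deposited table of unnormalized intensities was not used, because its array names match no sample label. From the log2 values, the line difference was fitted with limma 3.58.1 (R 4.3.3) on 8 arrays with cell line and treatment as terms, and p-values were adjusted by Benjamini-Hochberg over 12349 genes at a threshold of 0.05. The fit was also run on simulated data for the 12349 genes with known changes. Noise there was drawn separately for each array, so it says nothing about arrays that deviate together, and no result here rests on it.

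Arrays of one line and number deviated together (correlation of deviations from group means 0.907 in HCT116 and 0.87 in SNU398), and across lines they did not (-0.155 to -0.105), so arrays of a line and number formed a random block in an alternative fit. Other alternatives were centring, quantile normalization, filters, weights and leaving out arrays.

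Named genes were the 10 leading genes in each direction, up to 4 list members with the smallest p, called mismatch repair and decitabine genes, 5 genes in each direction with opposite signs between the numbers, and the 5 smallest interaction p. The lists hold 1063 genes, of which 723 were tested. Members and lists were chosen with earlier results of these data known. Symbols are as deposited, and families of near-identical copies (GAGE, SPANX, VCX) are uncertain. Promoter windows are RefSeq's. Results for some genes are not reported here.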

Additional observations from a re-analysis of the deposited data

Results flagged for a closer look

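In 7 genes 1 array lay far from the other 3 of its line, judged by its gap to the nearest array over the whole range. Chance gives about 1 such group in 20, and many genes were examined. In HCT116 these were IRX3 at 8.04 and ERBB2 at 9.33, and in SNU398 GAGE2A at 15.19, MSH6 at 12.69, TTK at 10.74, SLC39A10 at 9.40 and ADM at 12.63.

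Among the 5 genes with the smallest interaction p, 4 moved one way under the combination with both replicate numbers in HCT116 and the other way in SNU398. Such opposite movement was found in 2463 of the 12349 genes tested, so it is common in these data. The response, HCT116 minus SNU398, was -0.997 for SLC16A3, the lactate exporter. It was 1.28 ± 0.60 (SE) for FAM46A, which was at 10.37, 10.99, 9.57 and 10.94 in HCT116 and at 14.14, 13.69, 13.84 and 13.71 in SNU398. NES, the intermediate filament nestin, gave -1.01 ± 0.53, and HLA-DMA, a chaperone of MHC class II loading, gave -1.04 ± 0.58. The limma interaction called none of the 4, but its spread, and the SE given here, include the gap between the replicate numbers. The difference in response was not called with the replicate block either.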

How the results depend on the processing

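The count of called genes depended on the fit, and the cause was not tested. Against 2647 genes (272 higher in HCT116 and 2375 in SNU398), the random replicate block within each line gave 125 (24 and 101), averaging each line and number as a replicate block gave 29 (7 and 22), and a fixed replicate block across lines gave 4880 (450 and 4430). Centring gave 4960, with 3079 higher in HCT116, and centring with the replicate block, added after seeing the data, gave 1216 (616 and 600). Quantile normalization gave 1166 higher in HCT116 and 1394 higher in SNU398. Genes higher in HCT116 numbered 163 with a mean level of at least 9, 450 with zeros as missing and 491 with array weights. With only HCT116 replicate 1 the fit called 6017 genes (2201 and 3816), or 6547 with 4129 higher in HCT116 once centred, and with only replicate 2 it called 10382 (816 and 9566), or 8430 (4711 and 3719) once centred; both centred fits were added after seeing the data. At least 2-fold with both numbers were 593 and 660 genes after centring and 442 and 524 after quantile normalization. The 5-Aza-CdR arrays alone gave 0 calls by limma (1841 genes passed 0.05 unadjusted), and the combination arrays alone gave 284. Leaving out 1 array gave 669 to 5379 calls, 99 to 338 higher in HCT116 and 567 to 5041 higher in SNU398: 5379 without HCT116 5-Aza-CdR replicate 1, 5030 without HCT116 combination replicate 1, 1662 and 1086 without their replicate 2 partners, and 669 to 783 without any 1 SNU398 array. Of 142 named genes, the replicate block kept the call status of 58 and lost 84 calls, with no change of sign. Signs turned with centred replicate 2 arrays only for CDX2 (0.51), CALR (0.36), TDG (0.28), NT5C2 (0.0085), TKT (0.51) and HSP90B1 (0.72), and under quantile normalization for CALR (0.0505) and HSP90B1 (0.27).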
